A study of Mus musculus with 8 samples.

Results

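Vascular endothelial growth factor (VEGF) signalling was followed through 10 genes that send, receive or carry out the permeability signal between tissue and blood vessels: the ligands Vegfa, Vegfb, Vegfc, Angpt2 and Adm, the receptor genes Kdr, Flt1, Nrp1 and Ramp3, and the vessel wall gene Plvap. They were chosen by symbol as a pathway, with earlier results of these data known, and all 10 were found among the 23238 gene symbols of the count files. All 10 passed the filter on low counts in the whole table.

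Uterine stroma is the connective tissue beneath the epithelium of the uterus, and the RNA was taken from stromal cells of ovariectomized C57BL/6-ICR mice. There were 4 groups of 2 libraries each: Atg7 d/d mice given estradiol (E2, the main ovarian estrogen), Atg7 d/d mice given oil, Atg7f/f mice given E2, and Atg7f/f mice given oil. Atg7f/f mice carry the autophagy gene Atg7 between recombination sites and served as controls. In Atg7 d/d mice it was deleted by Cre recombinase driven from Amhr2, a gene active in uterine mesenchyme, so cells outside that lineage, endothelium among them, are not named as its target. No group with Cre and intact Atg7 was given, so effects of Cre and of the deletion cannot be told apart. The labels give neither the ages of the mice, the E2 dose and its time before collection, nor the way the cells were separated. They also do not say that the 2 libraries of a group came from separate mice, and the p-values given here therefore measure the spread between libraries, which may be technical.

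Vegfa is the main ligand of the pathway: it binds the receptors encoded by Kdr and Flt1 on endothelial cells, with the Nrp1 product as co-receptor, and opens the vessel wall to plasma. In the uterus of rodents, estrogen is known to bring rapid swelling of the stroma with fluid from leaky vessels, followed by growth of the tissue. Adrenomedullin, the product of Adm, acts on vessels through a separate receptor whose accessory subunits are the RAMP proteins.

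The 250 bases before the RefSeq start of transcription are shown for Vegfa and Adm, which fell with E2 in control stroma, and for Flt1 and Ramp3, which rose there, so that the letters near the start can be set beside the counts. Sequences are from RefSeq on GRCm38.p6, written 5′ to 3′ on the strand of the gene. Those of Vegfa (chr17:46032378-46032627, minus strand), Adm (chr7:110627407-110627656, plus strand), Flt1 (chr5:147726012-147726261, minus strand) and Ramp3 (chr11:6658283-6658532, plus strand) read as follows, with motif matches in capitals.
Vegfa: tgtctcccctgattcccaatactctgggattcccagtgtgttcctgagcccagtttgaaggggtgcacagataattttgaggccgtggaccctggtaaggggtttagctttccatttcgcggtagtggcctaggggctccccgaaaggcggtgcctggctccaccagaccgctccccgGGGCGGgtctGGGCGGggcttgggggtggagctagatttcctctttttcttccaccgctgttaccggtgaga
Adm: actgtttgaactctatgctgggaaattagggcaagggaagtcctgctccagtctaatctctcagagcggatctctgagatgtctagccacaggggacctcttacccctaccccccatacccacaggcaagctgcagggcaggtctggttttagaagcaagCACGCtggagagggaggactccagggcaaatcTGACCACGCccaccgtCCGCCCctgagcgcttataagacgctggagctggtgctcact
Flt1: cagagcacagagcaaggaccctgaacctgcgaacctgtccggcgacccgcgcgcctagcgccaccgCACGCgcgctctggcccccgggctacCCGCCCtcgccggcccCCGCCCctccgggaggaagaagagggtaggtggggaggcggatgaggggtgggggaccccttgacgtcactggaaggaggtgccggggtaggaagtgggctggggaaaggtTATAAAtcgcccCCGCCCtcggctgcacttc
Ramp3: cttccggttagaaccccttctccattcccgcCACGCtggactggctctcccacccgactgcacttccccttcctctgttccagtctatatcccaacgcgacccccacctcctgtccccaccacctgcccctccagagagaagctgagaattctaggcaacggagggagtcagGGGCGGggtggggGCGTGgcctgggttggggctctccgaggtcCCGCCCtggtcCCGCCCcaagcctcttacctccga

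The motifs searched on both strands were ACGTG and GCGTG (cores of the hypoxia response element), GGGCGG (the GC box), GGTCA (the half-site of the estrogen response element), GGTCANNNTGACC (the full element) and TATAAA (the TATA box). RefSeq windows were found for 8 of the 10 genes, leaving Plvap and Angpt2 without one here, and Vegfa had 2, so that 9 windows were searched. GGGCGG matched in all 9, against 32.7% of 32851 mouse windows of the same length, and GCGTG in 7 of 9, against 28.2%. Both motifs are rich in G and C, which made up 56.8% to 76.4% of the 9 windows, against a median of 52.4% over the mouse windows. The part of base composition in these matches was not tested. GGTCA matched in 4 of 9, against 35.2%, and TATAAA in 1 of 9, that of Flt1, against 12.4%. ACGTG matched in 1 of 9, against 16.6%, and the full estrogen response element in 0 of 9, against 0.0639%. The window of Vegfa shown here held GGGCGG at 2 places and none of the other motifs. Its second window (chr17:46025164-46025413), before a start inside the gene, held ACGTG at 1 place, GCGTG at 1 and GGGCGG at 1. That of Adm held GCGTG at 2 places, GGGCGG and GGTCA, of which GGTCA and a GCGTG share a base. Flt1 had GGGCGG at 3 places, GCGTG and TATAAA, and Ramp3 had GGGCGG at 3 places and GCGTG at 2. A match describes the letters of the window and not a binding site.

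Library totals ran from 5453943 to 6944769 reads, and levels are reads per 1000000 reads (CPM), with library sizes scaled by the trimmed mean of M-values (TMM). Each read marks the 3′ end of a transcript, and a level does not grow with transcript length. The replicates agreed least in control oil, where 14.9% of tested genes lay over 2-fold apart, against 5.16% to 7.38% in the other groups. Atg7 had 23 and 22 reads in Atg7 d/d E2 libraries, 21 and 33 in Atg7 d/d oil, 20 and 23 in control E2 and 22 and 32 in control oil, and 3′ reads do not show a loss of internal exons. All 11 stromal markers had reads in every library, summing to 4978 to 7036 CPM after E2 and 2177 to 3184 CPM in oil. So did all 11 epithelial markers, which summed to 1125 to 2482 CPM after E2 and 4554 to 17575 CPM in oil, and all 15 endothelial markers, at 3479 to 3900 CPM after E2 and 2836 to 3584 CPM in oil (lower after E2, at 1707 to 2294 CPM against 2209 to 2954 CPM in oil and overlapping, once Cd34 is left out). Markers of other cells summed, after E2 and in oil, to 6212 to 7156 and 1597 to 4017 CPM for smooth muscle, 516 to 573 and 289 to 543 CPM for pericytes, 115 to 143 and 255 to 436 CPM for lymphatic endothelium, 178 to 264 and 104 to 173 CPM for macrophages, and 276 to 495 and 163 to 241 CPM for erythroid cells. Markers of a list did not all move with its sum. In the stromal list, Col1a2 had means of 2457 CPM after E2 and 139 CPM in oil in Atg7-deleted stroma. It had 2215 and 88.4 CPM in control stroma, and Col3a1 was also far higher after E2. Dcn was lower after E2, at 1117 against 1455 CPM and 725 against 1137 CPM. Smtn was lower after E2 against a higher smooth muscle sum, and Elf3 not lower against a lower epithelial sum (group means). Whether the sums differed through cell makeup, and its part in the results, was not tested. In RNA from many cells at once, fewer cells of a type and less RNA per cell cannot be told apart.

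With E2, the genes that fell were ligands, and the genes that rose were receptors or the vessel wall gene. In Atg7-deleted stroma the ligand genes Vegfa, Adm and Angpt2 fell, and Plvap, Ramp3 and Nrp1 rose. In control stroma these 6 did likewise, and Flt1 rose. Kdr, Vegfb and Vegfc did not pass the test in either genotype. That made 6 of 10 genes past an adjusted p of 0.05 in Atg7-deleted stroma, where 24.3% of 13347 tested genes passed, and 7 of 10 in control stroma, where 29.8% passed (quasi-likelihood test of edgeR, adjusted by the method of Benjamini and Hochberg over all tested genes). The 3 that rose in Atg7-deleted stroma stand beside 13.1% of tested genes and the 3 that fell beside 11.2%, and in control stroma the 4 that rose stand beside 15.8% and the 3 that fell beside 14.0%. The E2 and oil libraries did not overlap for 9 of 10 genes in Atg7-deleted stroma, against 68.2% of tested genes, and for 8 of 10 in control stroma, against 65.5%. The median log2 fold change of the 10 genes was -0.06 in Atg7-deleted stroma and 0.17 in control stroma, beside 0.02 and 0.01 for all tested genes. Below, calls are also given for 8 fits that each left out 1 library. In 4 of these fits that library was of the other genotype, and the fold changes of the 10 genes moved by at most 1.008-fold. Such fits bear on a call mainly through the shared estimate of spread. A count over 8 fits can therefore overstate how well a call held without its own libraries. Both oil libraries numbered 1 were also left out, a choice made after seeing that they had the highest epithelial marker sums. That fit leaves 1 library in each oil group. The 6 genes called in both genotypes kept their direction. Flt1 had a log2 fold change of 0.58 in Atg7-deleted stroma, and Vegfc had -1.19 in control stroma.

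**Figure D1:**
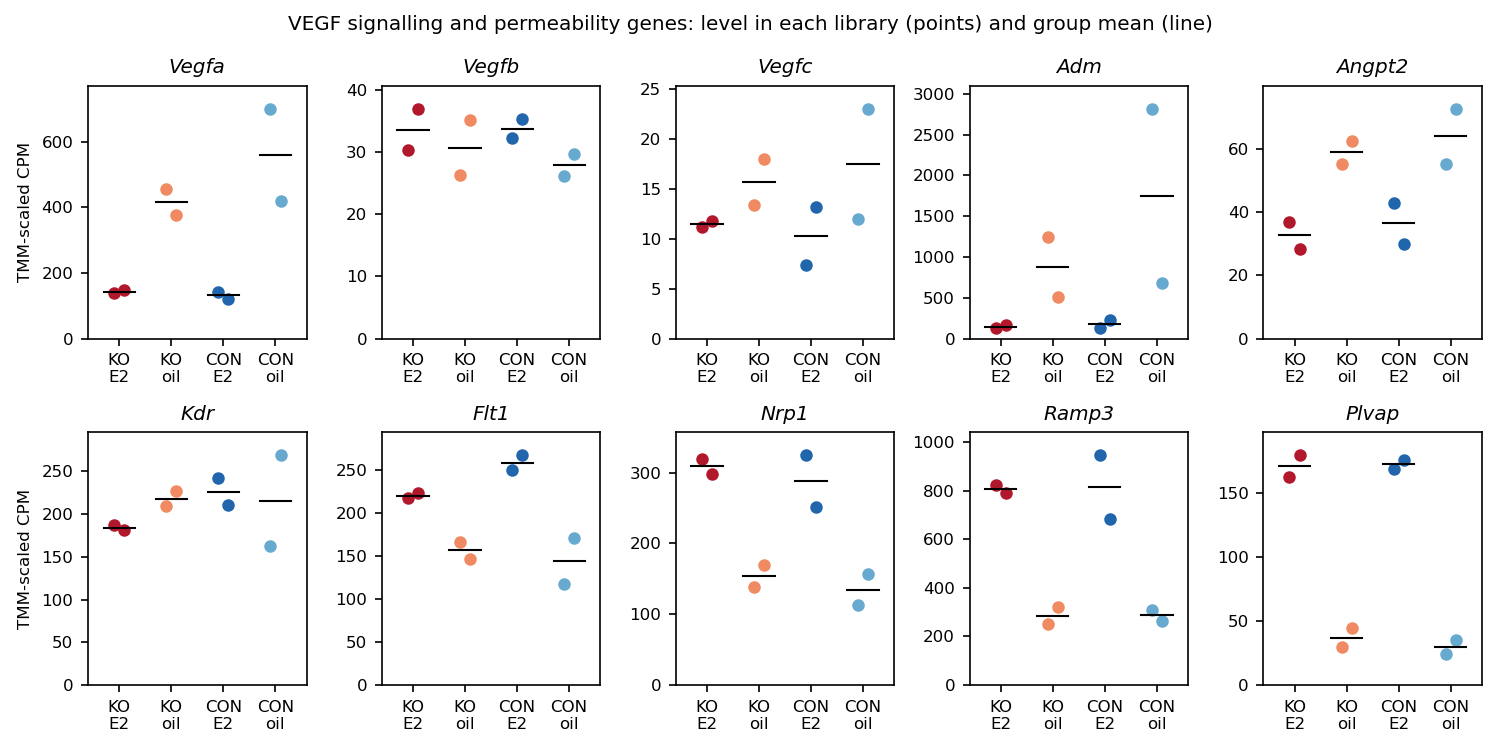
Level of each of the 10 genes in each of the 8 libraries (points; vertical axis, TMM-scaled CPM from 0), with the mean of the 2 libraries of a group as a line. The E2 libraries of Plvap lie between 163 and 179 CPM, above all oil libraries, and those of Vegfa between 122 and 148 CPM, below all oil libraries.

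Vegfa (chr17:46016993-46032369, minus strand, here and below from GENCODE M21 on mm10) had 137 and 148 CPM in Atg7-deleted stroma after E2, against 457 and 378 CPM in oil. In control stroma it had 142 and 122 CPM after E2, against 700 and 420 CPM in oil. The 4 E2 libraries lay within a narrow band, and the oil libraries, all higher, were spread more widely with control oil library 1 at the top. The log2 fold change was -1.55 ± 0.25 in Atg7-deleted stroma (SE, as for all fold changes; edgeR adjusted p = 0.00408) and -2.09 ± 0.26 in control stroma (adjusted p = 0.00117), levels 2.92-fold and 4.25-fold lower. The call in Atg7-deleted stroma ended without its E2 library 1 (adjusted p = 0.0547), and that in control stroma was kept in all 8 fits that left out 1 library, with -1.64 without control oil library 1.

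Vegfb (chr19:6982473-6987651, minus strand), whose product binds the Flt1 receptor and not the Kdr receptor, had 30.2 and 36.9 CPM in Atg7-deleted stroma after E2, against 26.2 and 35.1 CPM in oil. It had 32.3 and 35.2 CPM in control stroma after E2, against 26.0 and 29.6 CPM in oil. Its log2 fold change with E2 was 0.13 ± 0.22 in Atg7-deleted stroma (edgeR adjusted p = 0.695) and 0.28 ± 0.22 in control stroma (adjusted p = 0.357). There were 3.46 to 4.55 reads of Vegfa per read of Vegfb in the 4 E2 libraries and 10.8 to 26.9 in the 4 oil libraries, without overlap.

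Vegfc (chr8:54077606-54187096, plus strand) encodes the growth factor of lymphatic vessels and had the fewest reads of the 10 genes. It stood at 11.2 and 11.8 CPM in Atg7-deleted stroma after E2, against 13.4 and 18.0 CPM in oil, and at 7.40 and 13.2 CPM in control stroma after E2, against 12.0 and 23.0 CPM in oil. The groups overlapped in control stroma and not in Atg7-deleted stroma. Its log2 fold change was -0.45 ± 0.38 in Atg7-deleted stroma (edgeR adjusted p = 0.42) and -0.76 ± 0.38 in control stroma (adjusted p = 0.161). In control stroma the value depended on single libraries: it was -1.14 without oil library 1 (adjusted p = 0.0397, the only one of 8 such fits that passed), -1.23 without E2 library 2 (0.107), -0.39 without E2 library 1 (0.577) and -0.26 without oil library 2 (0.628). The summed level of lymphatic endothelial markers was also lower in every E2 library than in every oil library.

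Angpt2 (chr8:18690263-18741562, minus strand), made by endothelial cells and an antagonist in many settings of the vessel-stabilizing receptor encoded by Tek, had 36.9 and 28.3 CPM in Atg7-deleted stroma after E2, against 55.2 and 62.6 CPM in oil. In control stroma it had 42.9 and 30.0 CPM after E2, against 55.2 and 72.6 CPM in oil. All E2 libraries lay below all oil libraries. The log2 fold change was -0.85 ± 0.25 in Atg7-deleted stroma (edgeR adjusted p = 0.0351) and -0.81 ± 0.24 in control stroma (adjusted p = 0.0356). These calls stood near the threshold: with scaling to library totals alone the adjusted p was 0.0569 and 0.0679, and with 1 library left out the call ended in 4 of 8 fits in Atg7-deleted stroma (without any of its own 4 libraries, adjusted p 0.0872 to 0.211) and in 7 of 8 in control stroma (0.0502 to 0.207; it was kept without control oil library 1).

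Adm (chr7:110627661-110629820, plus strand), the gene of the vasodilator peptide adrenomedullin, had the largest change and the widest spread. It had 126 and 165 CPM in Atg7-deleted stroma after E2, against 1242 and 503 CPM in oil. In control stroma it had 124 and 232 CPM after E2, against 2816 and 683 CPM in oil. In oil, library 1 was 2.47-fold above library 2 in Atg7-deleted stroma and 4.12-fold above it in control stroma, yet all oil libraries lay above all E2 libraries. The log2 fold change was -2.58 ± 0.66 in Atg7-deleted stroma (edgeR adjusted p = 0.022) and -3.29 ± 0.68 in control stroma (adjusted p = 0.00815).

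The size of the Adm change rested on single libraries. In Atg7-deleted stroma it was -1.79 without oil library 1, and the call ended there (adjusted p = 0.119) and without E2 library 1 (0.158) or E2 library 2 (0.108). In control stroma it was -1.92 when oil library 1 was left out (adjusted p = 0.0158), -4.02 when oil library 2 was left out, and no longer called when E2 library 1 was left out (adjusted p = 0.0742). With both oil libraries numbered 1 left out, Adm changed by -1.80 in Atg7-deleted stroma (adjusted p = 0.00351) and by -1.96 in control stroma (adjusted p = 0.00198).

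The level of Adm followed the summed level of the 11 epithelial markers from library to library. There were 9.35 to 11.1 Adm reads per 100 epithelial marker reads in the 4 E2 libraries and 11.1 to 16.0 in the 4 oil libraries, a span of 1.71-fold over all 8 libraries. Vegfa did so less closely, with 4.91 to 12.6 reads per 100 epithelial marker reads after E2 and 3.98 to 8.30 in oil, a span of 3.16-fold. These ratios, chosen after the values were seen, describe levels that moved side by side, and the part of epithelial RNA in the falls of Adm and Vegfa was not tested.

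**Figure D2:**
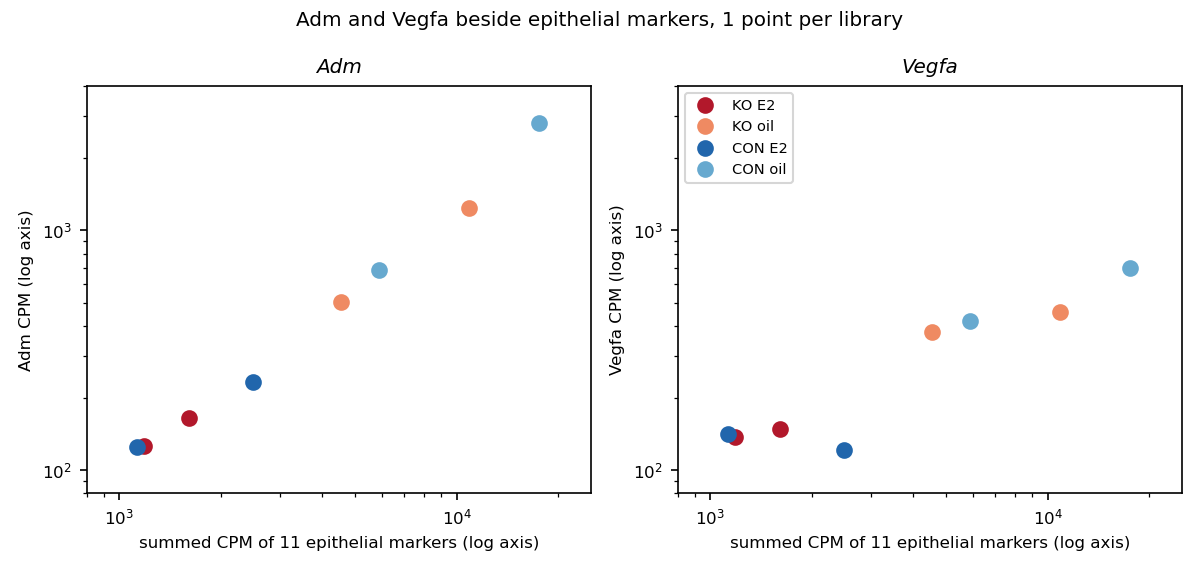
Adm (left) and Vegfa (right) against the summed level of 11 epithelial markers, in CPM with log axes on both sides, with 1 point for each of the 8 libraries. The E2 libraries stand at the lower left, with marker sums of 1125 to 2482 CPM, and control oil library 1 stands at the upper right, with 17575 CPM.

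On the receiving side, Kdr (chr5:75932827-75978458, minus strand), the main signalling receptor for VEGF in endothelium, had 187 and 181 CPM in Atg7-deleted stroma after E2, against 209 and 227 CPM in oil. It had 242 and 210 CPM in control stroma after E2, against 163 and 269 CPM in oil, so that both E2 libraries lay between the 2 oil libraries. Its log2 fold change was -0.25 ± 0.23 in Atg7-deleted stroma (95% interval -0.77 to 0.28, edgeR adjusted p = 0.471) and 0.07 ± 0.23 in control stroma (-0.46 to 0.59, adjusted p = 0.847).

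Flt1 (chr5:147561604-147726011, minus strand) encodes a receptor that binds Vegfa tightly and signals weakly, and whose soluble form traps it. It had 217 and 223 CPM in Atg7-deleted stroma after E2, against 167 and 146 CPM in oil, and 250 and 267 CPM in control stroma after E2, against 118 and 171 CPM in oil. All E2 libraries were above all oil libraries, and the files give a single count per symbol, so the soluble and membrane forms were not told apart. The log2 fold change was 0.49 ± 0.20 in Atg7-deleted stroma, where it did not pass (edgeR adjusted p = 0.105), and 0.84 ± 0.20 in control stroma (adjusted p = 0.0154). The difference between these values, -0.35 ± 0.29, did not pass its own test in edgeR (unadjusted p = 0.254). Atg7-deleted stroma passed without control oil library 1 (adjusted p = 0.0387) or 2 (0.0384), while the call in control stroma ended without its E2 library 1 (0.0655) or 2 (0.0791).

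Nrp1 (chr8:128358604-128503363, plus strand), the co-receptor shared by VEGF and semaphorins, had 319 and 299 CPM in Atg7-deleted stroma after E2, against 139 and 170 CPM in oil, and 324 and 252 CPM in control stroma after E2, against 113 and 157 CPM in oil. It rose 2.0-fold and 2.14-fold, with a log2 fold change of 1.0 ± 0.22 in Atg7-deleted stroma (edgeR adjusted p = 0.0126) and 1.10 ± 0.22 in control stroma (adjusted p = 0.0074). Without 1 library the call ended in Atg7-deleted stroma without its oil library 1 (0.0858), E2 library 1 (0.0915) or E2 library 2 (0.0628), and in control stroma without E2 library 1 (0.0619).

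Ramp3 (chr11:6658521-6677475, plus strand), which makes the calcitonin-like receptor respond to adrenomedullin, was the most abundant of the 10 genes after E2. It had 824 and 789 CPM in Atg7-deleted stroma after E2, against 251 and 320 CPM in oil, and 945 and 684 CPM in control stroma after E2, against 311 and 264 CPM in oil. The rise came to 1.50 ± 0.22 in Atg7-deleted stroma (edgeR adjusted p = 0.00291) and 1.50 ± 0.22 in control stroma (adjusted p = 0.00216), and was called in all 16 fits that left out 1 library. Ligand and accessory subunit thus moved apart: there were 2.95 to 7.59 Ramp3 reads per Adm read in the E2 libraries and 0.110 to 0.637 in the oil libraries.

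Plvap (chr8:71497765-71511752, minus strand) encodes the protein of the diaphragms that span endothelial fenestrae and caveolae, and rose the most. It had 163 and 179 CPM in Atg7-deleted stroma after E2, against 29.4 and 44.4 CPM in oil, and 169 and 176 CPM in control stroma after E2, against 24.1 and 35.1 CPM in oil. The 4 E2 libraries differed by little and lay far above every oil library. The log2 fold change was 2.21 ± 0.25 in Atg7-deleted stroma (4.63-fold, edgeR adjusted p = 0.00137) and 2.54 ± 0.25 in control stroma (5.83-fold, adjusted p = 0.000664), called in all 16 fits that left out 1 library.

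Some of these genes share their ends with others, and whether the counting used strand is not given in the sources used here. Plvap overlaps Gtpbp3 on the opposite strand at its 3′ end. Gtpbp3 had 30 to 80 reads a library and did not pass in either genotype. Angpt2 lies inside Mcph1, on the opposite strand, which had 18 to 48 reads and did not pass. Adm is overlapped by the antisense gene Gm28863, which is not among the symbols of the files.

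**Figure D3:**
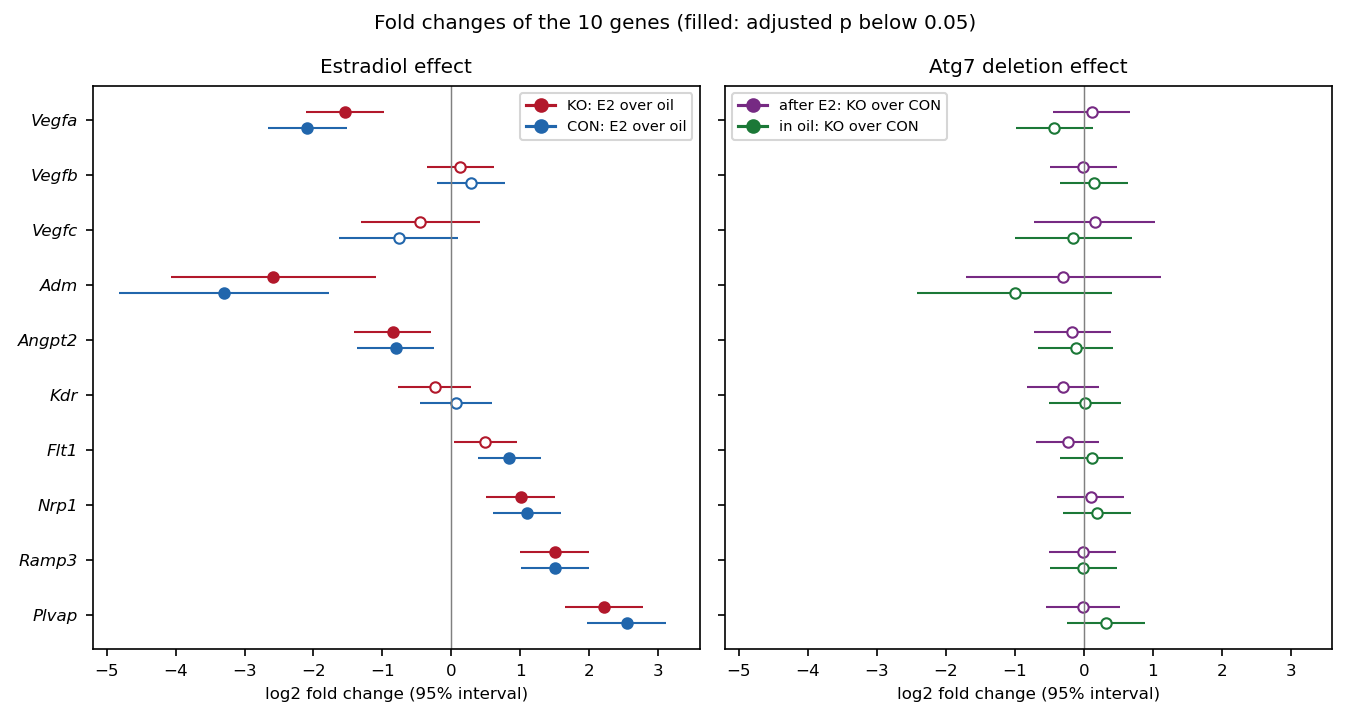
Log2 fold changes of the 10 genes with their 95% intervals (lines). The left panel gives E2 over oil in Atg7-deleted (KO) and control (CON) stroma, the right panel KO over CON after E2 and in oil, and filled points have an adjusted p below 0.05. Points spread from -3.29 to 2.54 on the left, and every interval on the right holds 0.

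Relative to Kdr, reads of Flt1, Plvap and Nrp1 were higher after E2. These ratios use the same counts as above, and their overlap was not set beside that of other gene pairs. In the 4 E2 libraries there were 1.03 to 1.27 Flt1 reads per Kdr read, against 0.636 to 0.796 in the 4 oil libraries. Plvap had 0.698 to 0.988 reads per Kdr read after E2, against 0.130 to 0.196 in oil. Neither ratio overlapped between the treatments, and the same was true of Nrp1, which cells other than endothelium also express, at 1.20 to 1.70 after E2 and 0.583 to 0.747 in oil.

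Set against all 15 endothelial markers, Plvap had 4.28 to 5.15 reads per 100 marker reads after E2 and 0.851 to 1.37 in oil, so its rise was larger than that of the marker sum. Angpt2 had 0.801 to 1.10 after E2 and 1.93 to 2.02 in oil, without overlap. Kdr had 4.92 to 6.21 after E2 and 5.75 to 7.50 in oil, and Flt1 had 5.71 to 7.13 after E2 and 4.15 to 5.84 in oil, both with overlap.

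The marker sum itself depended on Cd34, a gene that stromal cells can express as well. Cd34 supplied 38.7% to 55.1% of the endothelial marker reads after E2 and 17.6% to 23.6% in oil, and rose by 1.33 ± 0.23 in Atg7-deleted stroma (edgeR adjusted p = 0.00516) and by 1.44 ± 0.23 in control stroma (adjusted p = 0.0031). With Cd34 left out, a choice made after its share was seen, the marker sum leaned the other way, at 1707 to 2294 CPM after E2 and 2209 to 2954 CPM in oil. Kdr did so too, at 8.98 to 11.2 reads per 100 marker reads after E2 and 7.10 to 9.48 in oil, with overlap as before. Flt1 no longer overlapped, at 11.1 to 12.7 after E2 and 5.13 to 7.55 in oil. Plvap stood at 7.66 to 9.53 after E2 and 1.05 to 1.80 in oil, and Angpt2 at 1.31 to 2.16 after E2 and 2.40 to 2.53 in oil. Of all 15 markers, 4 had log2 fold changes above 0 and 11 below in Atg7-deleted stroma, and 6 and 9 in control stroma. Cldn5, listed below among junction genes too, averaged 36.7 CPM after E2 and 167 CPM in oil in Atg7-deleted stroma. It averaged 47.5 and 189 CPM in control stroma. For Egfl7 these means were 527 and 675 CPM, and 587 and 824 CPM. The ratios thus depend on falling markers as well as on Cd34.

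**Figure D4:**
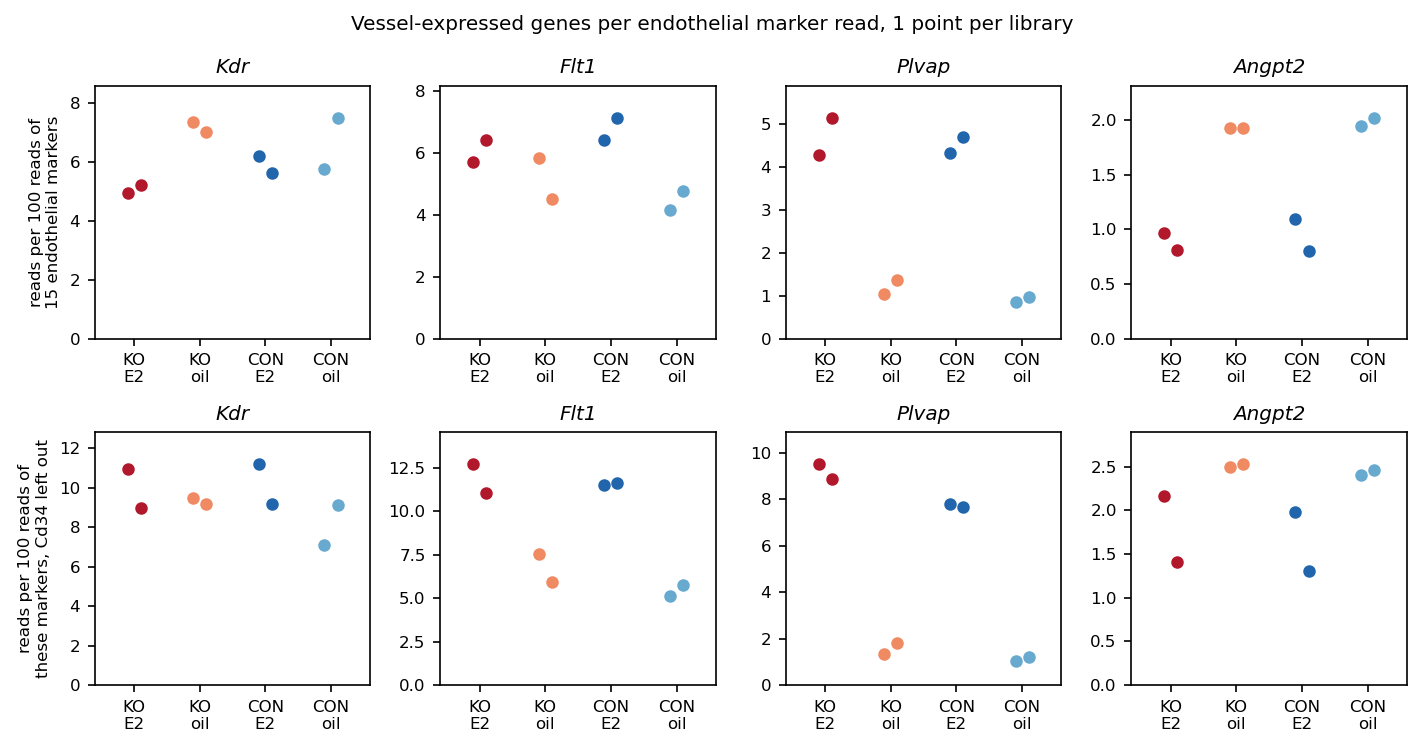
Reads of Kdr, Flt1, Plvap and Angpt2 per 100 reads of endothelial markers in each library (points), with all 15 markers in the upper row and with Cd34 left out in the lower row. Plvap is higher and Angpt2 lower in every E2 library than in every oil library in both rows, while Flt1 separates in the lower row and overlaps in the upper one.

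The next comparison, set out by the design of the series, was deletion of Atg7 against control within each treatment. None of the 10 genes passed in oil or after E2, where 0% of 13347 tested genes passed in each (edgeR). At an unadjusted p below 0.05 there were 0 of the 10 genes in both comparisons, with 339 of all tested genes in oil and 403 after E2, and DESeq2 also called 0 genes after adjustment (212 and 277 unadjusted). In oil the log2 fold changes of deleted over control stroma ran from -1.0 ± 0.62 for Adm to 0.32 ± 0.25 for Plvap, and after E2 from -0.30 ± 0.23 for Kdr to 0.16 ± 0.39 for Vegfc. The median over the 10 genes was 0.00453 in oil and -0.01 after E2, beside -0.00941 and -0.01 for all tested genes.

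These comparisons limit a difference only to the width of their intervals. Leaving Adm aside, the 95% intervals of the other 9 genes ran between -1.0 and 0.88 in oil and between -0.82 and 1.04 after E2. For Adm the interval reached from -2.41 to 0.40 in oil and from -1.70 to 1.12 after E2. No gene had groups without overlap in oil, where 24.5% of all tested genes did. After E2, Kdr and Flt1 were lower in both Atg7-deleted libraries than in both control libraries, a separation found in 34.2% of all tested genes and, in the same direction, in 18.2%.

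Whether E2 acted differently in the 2 genotypes was tested as the difference between the E2 effects. It passed for 0 of the 10 genes and 0% of all tested genes (edgeR; 0 of the 10 and 210 genes at an unadjusted p below 0.05; DESeq2 called 0, 138 unadjusted). The smallest p among the 10 was that of Vegfa, whose fall was smaller in Atg7-deleted stroma by 0.54 ± 0.35 (95% interval -0.24 to 1.33, unadjusted p = 0.153). For Ramp3 the difference was -0.00748 ± 0.30 (-0.69 to 0.68), and for Plvap -0.33 ± 0.34 (-1.11 to 0.44).

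Around the 10 genes, 105 others of the pathway were listed by role, of which 102 were in the files and 98 were tested. With E2, 8 rose and 15 fell in Atg7-deleted stroma (23.5%) and 9 rose and 15 fell in control stroma (24.5%), shares near those of all tested genes. With 1 library left out the number called ran from 7 (without Atg7-deleted E2 library 1) to 37 (without control oil library 1) in Atg7-deleted stroma and from 9 (without control E2 library 2) to 28 (without control oil library 2) in control stroma. The deletion effect passed the threshold for 0 of the 98 in oil or after E2, and the difference between the E2 effects passed for 0. With 2 libraries a group, this does not show that deletion left them unchanged.

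Of 16 other ligands and antagonists, 3 rose and 3 fell in Atg7-deleted stroma, and 3 rose and 1 fell in control stroma. Over all tested genes, 13.1% rose and 11.2% fell in Atg7-deleted stroma, and 15.8% rose and 14.0% fell in control stroma. Angptl4, Sema3a and Sema3c rose in both, Sema3d fell in both, and Pgf and Ccbe1 passed in Atg7-deleted stroma. Angptl4, a secreted protein that acts on lipoprotein lipase and on vessels, had 108 and 93.7 CPM in Atg7-deleted stroma after E2, against 20.1 and 36.2 CPM in oil, and 97.6 and 87.9 CPM in control stroma after E2, against 24.9 and 36.5 CPM in oil. Its rise of 1.84 ± 0.30 in Atg7-deleted stroma (edgeR adjusted p = 0.00392) and 1.60 ± 0.29 in control stroma (0.00523) was kept in all 16 fits without 1 library. Sema3a, a semaphorin that competes for neuropilin, rose by 1.79 ± 0.37 in Atg7-deleted stroma (0.0107, kept in 6 of 8 such fits) and by 1.95 ± 0.38 in control stroma (0.00665, kept in 8, with 2.78 without control oil library 2). Sema3c rose by 0.99 ± 0.21 in Atg7-deleted stroma (0.0113, kept in 5) and by 0.63 ± 0.21 in control stroma (0.0491, kept in 0). Sema3d fell by 2.22 ± 0.35 in Atg7-deleted stroma (0.00388, kept in 8) and by 1.09 ± 0.33 in control stroma (0.0365, kept in 1).

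Pgf, whose product placental growth factor is, like those of Vegfa and Vegfb, a ligand of the Flt1 receptor, had 17.6 and 14.9 CPM in Atg7-deleted stroma after E2, against 31.1 and 30.3 CPM in oil, and 23.5 and 17.5 CPM in control stroma after E2, against 36.1 and 27.8 CPM in oil. All E2 libraries lay below all oil libraries. It fell by 0.92 ± 0.24 in Atg7-deleted stroma (edgeR adjusted p = 0.0231, kept in 4 of 8 fits) and had -0.64 ± 0.23 in control stroma (adjusted p = 0.0652). Ccbe1, which is needed to activate the Vegfc product, fell by 2.37 ± 0.64 in Atg7-deleted stroma (0.0275, kept in 4, on 3 and 4 reads after E2 and 20 and 20 in oil) and had -1.70 ± 0.60 in control stroma (0.0588). The difference between the E2 effects passed for neither.

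Of 15 other receptors, 1 rose and 1 fell in Atg7-deleted stroma, and 2 rose and 2 fell in control stroma. Beside these stand 24.3% and 29.8% of all tested genes called in Atg7-deleted and control stroma. Ramp2, the other accessory subunit through which adrenomedullin acts, had 221 and 199 CPM in Atg7-deleted stroma after E2, against 67.5 and 92.8 CPM in oil, and 184 and 152 CPM in control stroma after E2, against 57.0 and 78.2 CPM in oil. It rose by 1.39 ± 0.23 in Atg7-deleted stroma (edgeR adjusted p = 0.00427) and by 1.32 ± 0.23 in control stroma (0.00428), called in all 16 fits without 1 library. Calcrl, the receptor both subunits serve, had values of -0.01 ± 0.33 in Atg7-deleted stroma (adjusted p = 0.988) and -0.04 ± 0.33 in control stroma (adjusted p = 0.934), and was added after its values were seen. Ramp1, which pairs with the same receptor for another peptide, had -1.22 ± 0.42 in Atg7-deleted stroma (adjusted p = 0.0621) and fell by 1.28 ± 0.42 in control stroma (0.048, kept in 1 of 8 fits, with -0.55 without control oil library 2).

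Aplnr, the receptor of apelin, had 1.60 ± 0.52 in Atg7-deleted stroma (edgeR adjusted p = 0.0507) and rose by 2.68 ± 0.53 in control stroma (0.00709, ended at 0.051 without control E2 library 1, with 2.02 without control oil library 1 and 3.98 without control oil library 2). Plxnb1, a semaphorin receptor, fell by 1.75 ± 0.31 in Atg7-deleted stroma (0.00586, ended at 0.0619 without its E2 library 1) and by 1.84 ± 0.31 in control stroma (0.00377, kept in 8 of 8 fits).

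Among 28 genes of signal transduction below the receptors, 1 rose in each genotype, Prkcb, a protein kinase C. It rose by 2.26 ± 0.37 in Atg7-deleted stroma (edgeR adjusted p = 0.00416, kept in 8 of 8 fits without 1 library) and by 1.57 ± 0.37 in control stroma (0.0136, ended at 0.0986 without control E2 library 1). Falls were found for 5 genes in Atg7-deleted stroma and 4 in control stroma. Among all tested genes, 13.1% rose and 11.2% fell in Atg7-deleted stroma, and 15.8% rose and 14.0% fell in control stroma. Nfatc1, a transcription factor that calcineurin activates downstream of VEGF, fell by 1.81 ± 0.24 in Atg7-deleted stroma (0.00223, kept in 8 fits) and by 1.07 ± 0.24 in control stroma (0.0107, kept in 7). Rcan1, an inhibitor of calcineurin, fell by 1.0 ± 0.26 in Atg7-deleted stroma (0.0249) and by 1.14 ± 0.26 in control stroma (0.0126). Shb, an adaptor of the Kdr receptor, fell by 1.57 ± 0.40 in Atg7-deleted stroma (0.0224) and by 1.64 ± 0.40 in control stroma (0.0152, with -0.98 without control oil library 1). Each of these calls was kept in 5 of 8 fits. Plcg2, a phospholipase C, fell by 1.12 ± 0.34 in Atg7-deleted stroma (0.0409, kept in 2) and by 1.12 ± 0.33 in control stroma (0.0324, kept in 3). Pxn, an adaptor of focal adhesions, fell by 1.15 ± 0.25 in Atg7-deleted stroma (0.0122, kept in 6) and had -0.66 ± 0.25 in control stroma (0.0705).

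Of 19 genes of junctions and permeability, 0 rose and 3 fell in each genotype. The falls stand beside 11.2% of all tested genes in Atg7-deleted stroma and 14.0% in control stroma, and are near those shares. Rises were found in 13.1% and 15.8% of all tested genes. Cldn5, the claudin of endothelial tight junctions, had 37.4 and 36.1 CPM in Atg7-deleted stroma after E2, against 156 and 179 CPM in oil, and 42.3 and 52.7 CPM in control stroma after E2, against 136 and 243 CPM in oil. It fell by 2.19 ± 0.28 in Atg7-deleted stroma (edgeR adjusted p = 0.0018) and by 1.99 ± 0.27 in control stroma (0.00174), called in all 16 fits. Cldn5 and Plvap, both genes of the vessel wall, thus moved in opposite directions. Aqp1, a water channel of endothelium, fell by 1.26 ± 0.22 in Atg7-deleted stroma (0.00493, ended at 0.06 without its E2 library 1) and by 0.96 ± 0.22 in control stroma (0.0115, kept in 6 fits). Vcl, a protein of adhesion sites in many cell types, fell by 0.89 ± 0.24 in Atg7-deleted stroma (0.0254, kept in 4) and by 1.02 ± 0.24 in control stroma (0.0129, kept in 5).

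Hypoxia raises Vegfa in many cells, and 20 hypoxia factors and targets were listed for that reason. Their directions were mixed: 3 rose and 3 fell in Atg7-deleted stroma, and 3 rose and 5 fell in control stroma. These 6 and 8 of 20 genes stand beside 24.3% and 29.8% of all tested genes. The part of hypoxia in the fall of Vegfa was not tested. The glycolytic genes Pgk1 and Ldha rose, Pgk1 by 1.12 ± 0.29 in Atg7-deleted stroma (edgeR adjusted p = 0.0224, kept in 4 of 8 fits) and 1.23 ± 0.29 in control stroma (0.0128, kept in 7), and Ldha by 1.19 ± 0.27 in Atg7-deleted stroma (0.0149, kept in 4) and 1.06 ± 0.27 in control stroma (0.0196, kept in 6). Hif1a, the hypoxia-inducible factor itself, rose by 0.55 ± 0.16 in Atg7-deleted stroma (0.0335, kept in 2) and by 0.47 ± 0.16 in control stroma (0.0489, kept in 0).

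Other genes of this list fell, as Vegfa did. Pfkfb3, a regulator of glycolysis, had 85.1 and 69.7 CPM in Atg7-deleted stroma after E2, against 267 and 206 CPM in oil, and 82.7 and 94.7 CPM in control stroma after E2, against 243 and 203 CPM in oil. It fell by 1.61 ± 0.21 in Atg7-deleted stroma (edgeR adjusted p = 0.00192) and by 1.33 ± 0.20 in control stroma (0.00264), called in all 16 fits. Slc2a1, a glucose transporter, fell by 1.72 ± 0.35 in Atg7-deleted stroma (0.00996, kept in 5 of 8) and 2.25 ± 0.36 in control stroma (0.00296, kept in 8). Ndrg1 fell by 1.08 ± 0.23 in Atg7-deleted stroma (0.0117, kept in 5) and by 1.0 ± 0.23 in control stroma (0.0127, kept in 6). Hk2, a hexokinase, had -1.13 ± 0.39 in Atg7-deleted stroma (adjusted p = 0.0613) and fell by 1.49 ± 0.39 in control stroma (0.0205, kept in 5, with -0.79 without control oil library 1). Bnip3, a mitochondrial protein induced by hypoxia, had -0.43 ± 0.25 in Atg7-deleted stroma (adjusted p = 0.232) and fell by 0.76 ± 0.25 in control stroma (0.0499, kept in 1). Among the named pathway genes whose call ended when a library was left out, the highest adjusted p a gene reached ran from 0.06 to 0.209 in Atg7-deleted stroma and from 0.051 to 0.292 in control stroma. It was reached without an E2 library of the same genotype in all but Pgk1 in Atg7-deleted stroma (without oil library 2) and Ramp1 in control stroma (without oil library 2).

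**Figure D5:**
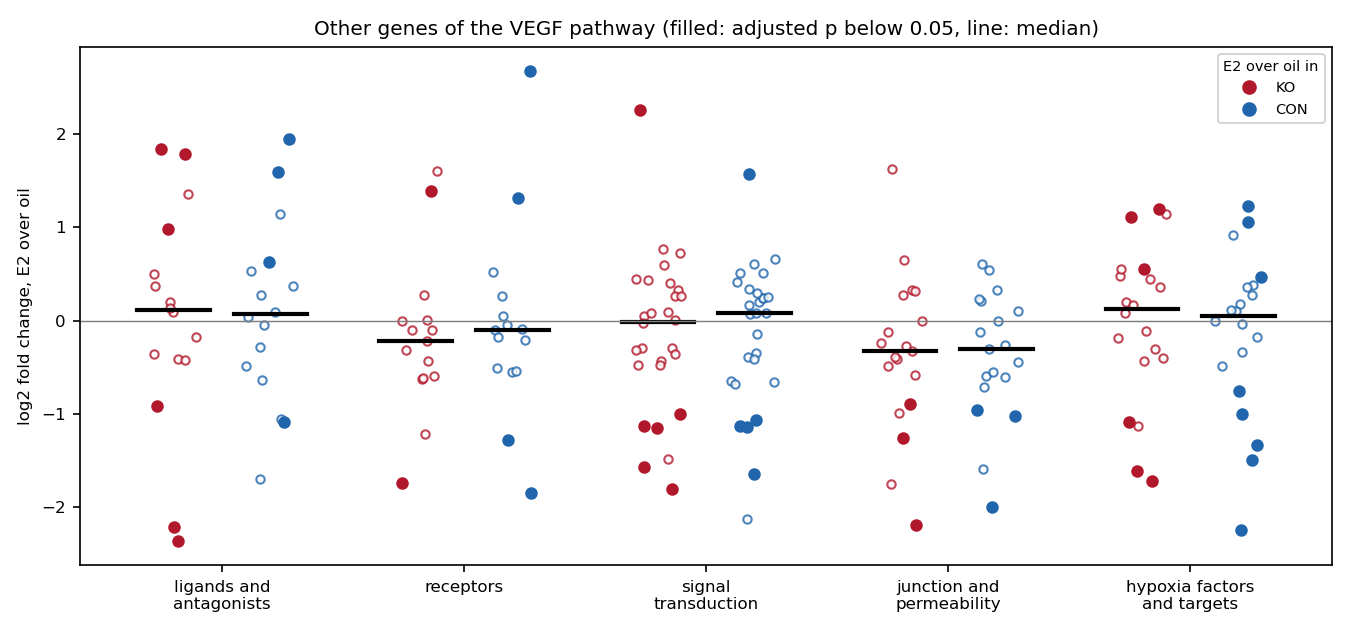
Log2 fold change with E2 of each tested gene of the 5 lists (points), in Atg7-deleted stroma (KO) and control stroma (CON), with the median of each list as a line and filled points for an adjusted p below 0.05. Filled points stand on both sides of 0 in each list but junction and permeability, where all 3 in each genotype are below it. Those 3 are of 19 genes, beside 11.2% (KO) and 14.0% (CON) of all tested genes that fell.

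With no gene of the 98 past the threshold for deletion, the pair with the smallest p is given for each comparison. In oil these were Ackr3, a scavenger receptor (0.63 ± 0.22 for deleted over control stroma, edgeR unadjusted p = 0.0175), and Apln, the gene of apelin (-1.47 ± 0.62, edgeR unadjusted p = 0.042, on 3 and 6 reads in Atg7-deleted stroma and 13 and 11 in control stroma). After E2 they were Ptges, a prostaglandin E synthase (1.09 ± 0.26, edgeR unadjusted p = 0.00216), and Prkcb (1.14 ± 0.35, edgeR unadjusted p = 0.0102). The adjusted p in edgeR was 1 for each.

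To see which genes kept the same profile, the level of each tested gene was centred on its mean over the 8 libraries on the log2 scale and set against Vegfa and Plvap by the root mean square of the differences, over 12721 genes without predicted ones. Nearest to Vegfa were Vps37b (0.165), Mt1 (0.166) and Hmga1 (0.174), where the median gene stood at 0.998. Mt1, a metallothionein, had 195 and 185 CPM in Atg7-deleted stroma after E2, against 715 and 531 CPM in oil, and 185 and 207 CPM in control stroma after E2, against 837 and 657 CPM in oil. Nearest to Plvap were Pak3 (0.145), Sparc (0.151) and Gpx7 (0.158), where the median gene stood at 1.24. Sparc, a secreted matrix protein, had 4375 and 4172 CPM in Atg7-deleted stroma after E2, against 800 and 1031 CPM in oil, and 4111 and 4095 CPM in control stroma after E2, against 775 and 974 CPM in oil.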

How the data were processed

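RNA of 8 libraries (500 ng of total RNA each, QuantSeq 3′ kit, per the labels) was sequenced, and the authors deposited counts: whole reads for each gene symbol, without normalization. Bowtie2, edgeR and the build mm10 are named in the submitters' processing notes. Not given in the sources used here are the counter, the annotation and any use of strand. Each file held 23282 lines for 23238 symbols. Where a symbol had several lines (35 symbols, 79 lines), only its most abundant line was used, which dropped 0.0973% of counts. The filter of edgeR 4.0.16 (R 4.3.3; minimum count 10, minimum total 15) left 13347 genes. TMM scaling and 1 quasi-likelihood model with 4 group means (4 residual and 5.08 prior degrees of freedom, coefficient of variation 21.8%) gave all contrasts, adjusted by Benjamini and Hochberg over all tested genes at 0.05. With 2 against 2 libraries, an exact permutation test cannot go below p = 0.333. Intervals are 95%. Coordinates came from GENCODE M21, and motifs were searched in RefSeq windows of 250 bases.

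The members and gene lists were chosen with earlier results of these data known. Named were the 10 members, listed pathway genes past the threshold with E2 in control stroma (at most 4 a list and direction by smallest p), the 2 smallest p where none passed, and the 3 genes most like Vegfa and Plvap (log2 CPM, prior count 2). Pgf, Ccbe1, Pxn and Bnip3 were added after their values were seen, so that each listed gene called with E2 is named. Alternatives were RLE scaling, library totals, DESeq2 1.42.0, no filter, a replicate block, summed lines, leaving out each library, and leaving out both oil libraries numbered 1. The code was checked on simulated counts with the fitted spread and few genes changed. Those settings differ from these data, so the check does not bear on the calls given here. Same-numbered libraries were not taken as pairs.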

Additional observations from a re-analysis of the deposited data

Results flagged for a closer look

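In 2 listed pathway genes every library of a group lay on the opposite side in the other group. Both were among the genes named above by their p-values. How often this pattern occurs among all tested genes was not counted, so it has no background here. In a single comparison, groups did not overlap in 24.5% of all tested genes for deletion in oil and 34.2% after E2. For E2 against oil the share was 68.2% in Atg7-deleted stroma and 65.5% in control stroma. Ptges had 37.6 and 26.0 CPM in Atg7-deleted stroma after E2, against 19.1 and 21.4 CPM in oil, and 17.3 and 12.4 CPM in control stroma after E2, against 20.8 and 19.7 CPM in oil, so that the E2 effect pointed up in the deleted and down in the control libraries. The difference between the E2 effects was 1.09 ± 0.36 (edgeR, unadjusted p = 0.0149, adjusted p = 1). Sema3d had 3.24 and 2.43 CPM in Atg7-deleted stroma and 4.33 and 5.07 CPM in control stroma after E2, against 14.1 and 12.3 CPM in Atg7-deleted stroma and 7.89 and 12.2 CPM in control stroma in oil. The deletion effect pointed down after E2 and up in oil, and the difference was -1.12 ± 0.48 (unadjusted p = 0.0451, adjusted p = 1). Neither difference passed after adjustment. For Sema3d in oil, the nearest libraries of the deleted and control groups stood at 12.29 and 12.22 CPM, on 78 and 69 reads. Over the alternatives the adjusted p ran from 0.645 to 1 for Ptges and from 0.647 to 1 for Sema3d.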

How the results depend on the processing

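Counts of genes called with E2 moved most when 1 library was left out, a fit in which the lone library is assumed to vary like the other groups. Over the whole table they ran from 740 to 4345 in Atg7-deleted stroma (3242 with all) and from 1505 to 4168 in control stroma (3978 with all), and among the 10 genes from 2 to 7 (6 with all) and from 3 to 8 (7 with all). The lowest counts came without E2 library 1 of the same genotype. Deletion and the difference between E2 effects gave 0 calls in every fit. Deviations of same-numbered libraries from their group means correlated at 0.494 between the oil groups and at -0.23 to 0.23 between the other pairs of groups (across genes, which are not independent replicates). With a replicate block, 6 and 7 of the 10 genes and 3423 and 4094 of all genes were called in Atg7-deleted and control stroma. Depth leaves genes such as Vegfc, Apln, Sema3d, Plcg2 and Ccbe1 with few reads.

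In the settings other than leaving out 1 library, the values that turned direction lay between -0.27 and 0.28 and were not called. With both oil libraries numbered 1 left out, Kdr had -0.27 for E2 in control stroma and Vegfb -0.072 in Atg7-deleted stroma. For deletion in oil Kdr had -0.25, Flt1 -0.23 and Ramp3 0.28, and after E2 Vegfb had 0.00624 and Plvap 0.000367. The difference between E2 effects was 0.00897 for Flt1 and 0.063 for Angpt2. With library totals alone, deletion gave 0.060 for Ramp3 in oil, 0.013 for Vegfb and 0.00707 for Plvap after E2. The block gave 0.00336 for Ramp3 in oil, and no filter gave 0.000647 for Ramp3 in the difference between E2 effects.

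With 1 library left out, values ran for E2 from -0.22 to 0.44 for Kdr in control stroma and from -0.063 to 0.36 for Vegfb in Atg7-deleted stroma. For deletion in oil they ran from -0.77 to 0.028 for Vegfa, -0.082 to 0.34 for Vegfb, -0.52 to 0.36 for Vegfc, -0.27 to 0.39 for Kdr, -0.089 to 0.38 for Flt1, -0.00721 to 0.59 for Plvap, -0.27 to 0.063 for Angpt2, -1.80 to 0.40 for Adm and -0.19 to 0.16 for Ramp3. After E2 they ran from -0.16 to 0.12 for Vegfb, -0.21 to 0.63 for Vegfc, -0.072 to 0.29 for Nrp1, -0.085 to 0.052 for Plvap, -0.40 to 0.12 for Angpt2, -0.68 to 0.22 for Adm and -0.23 to 0.23 for Ramp3. For the difference between E2 effects they ran from -0.35 to 0.073 for Vegfb, -0.19 to 0.78 for Vegfc, -0.32 to 0.10 for Nrp1, -0.28 to 0.23 for Angpt2, -0.68 to 1.50 for Adm and -0.22 to 0.24 for Ramp3. The causes were not tested.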
